A study of Mus musculus with 71 samples.

Results

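The choroid plexus genes are 7 of the 15768 gene rows of the array table: Ttr (ENSMUSG00000061808_at), Enpp2 (ENSMUSG00000022425_at), Folr1 (ENSMUSG00000001827_at), Kcne2 (ENSMUSG00000039672_at), Clic6 (ENSMUSG00000022949_at), Aqp1 (ENSMUSG00000004655_at) and Kl (ENSMUSG00000058488_at). They were chosen by identifier, as genes with a known place in the choroid plexus, and all 7 were present. Their levels were followed array by array in dissected mouse striatum, a brain region that borders the lateral ventricle. RNA was labelled with biotin and hybridised to Affymetrix arrays, and each of 71 arrays held 1 animal, except 1 array of pooled animals in line Ko. All values below are the deposited log2 values, so a difference of 1 is a 2-fold difference.

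Line Ki2 gave embryos at E16.5, late in gestation, with 13 homozygous humanised animals (Foxp2hum/hum, hum) and 12 wild-type animals (Foxp2wt/wt, wt). It also gave adult females aged 95 days, 6 hum and 5 wt. Line Ki gave juveniles of 15, 18 or 21 days, 11 hum and 6 wt. Line Ko gave juveniles of the same ages, 12 heterozygous knock-outs (Foxp2wt/ko, ko) and 6 wt. The hum allele carries the human substitutions of the transcription factor gene Foxp2. Each line goes back to a single C57BL/6 stem cell clone: 5H11 for lines Ki and Ko, and for line Ki2 a clone that the labels spell 5H10 in one place and 5C10 in another. The neomycin cassette had been removed in line Ki, and the ko allele was made with a Cre deleter strain that was crossed out again. Embryonic and adult striata were cut out whole, with the pallidum, under a stereomicroscope, while juvenile striatum was taken as round punches of brain slices. Embryos were hybridised in runs 4 and 5, juveniles in runs 1 to 3 and adults in run 6.

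The choroid plexus is a folded epithelium on a core of blood vessels that hangs into the brain ventricles and secretes the cerebrospinal fluid. Its cells move ions and water from blood to ventricle and release carrier proteins and hormones into the fluid. The secreted members of the set are Ttr, transthyretin, which carries thyroid hormone, and Enpp2, autotaxin, an enzyme that makes the lipid signal lysophosphatidic acid and is also made by oligodendrocytes. Folr1, folate receptor alpha, takes folate across the epithelium. Kcne2 is an accessory subunit of potassium channels, Clic6 belongs to the chloride intracellular channel family and Aqp1 is a water channel. Kl, klotho, is a co-receptor for the hormone FGF23 and can be shed from the cell surface.

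No pair of arrays was identical, and arrays of 1 group correlated between 0.964 and 0.997 over all rows. Array medians lay between 6.82 and 6.98. The row identifiers could not be joined to symbols with the reference used here, which holds 0 Ensembl identifiers. Markers of striatal neurons, of other ventricle-lining cells and of blood vessels, and the targeted gene Foxp2 itself, were therefore not looked up. In tissue samples, fewer cells of a type and less RNA per cell cannot be told apart.

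Among the members, Kcne2 and Clic6 lie near each other on chromosome 16, with 11 annotated genes between them, 5 of them protein coding. Promoters are shown for the 3 members that matched the RefSeq promoter table (GRCm38.p6), which gives 250 bases before and 50 bases after a start. Kcne2 has a pair of starts, at chr16:92292139-92292438 and chr16:92295366-92295665. The Aqp1 window is chr6:55336049-55336348 and the Kl window chr5:150952357-150952656, and all 4 windows lie on the plus strand.
Kcne2, first start: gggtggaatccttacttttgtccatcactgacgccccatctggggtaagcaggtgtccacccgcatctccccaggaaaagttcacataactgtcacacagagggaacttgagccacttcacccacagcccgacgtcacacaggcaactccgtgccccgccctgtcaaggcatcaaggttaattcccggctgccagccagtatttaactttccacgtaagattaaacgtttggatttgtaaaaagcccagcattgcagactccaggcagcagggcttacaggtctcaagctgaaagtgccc
Kcne2, second start: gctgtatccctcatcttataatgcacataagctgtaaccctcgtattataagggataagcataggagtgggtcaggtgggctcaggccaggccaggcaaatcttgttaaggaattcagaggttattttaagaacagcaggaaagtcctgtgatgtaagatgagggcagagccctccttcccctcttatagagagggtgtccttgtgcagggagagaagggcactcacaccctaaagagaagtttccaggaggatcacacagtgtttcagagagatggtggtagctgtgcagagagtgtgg
Aqp1: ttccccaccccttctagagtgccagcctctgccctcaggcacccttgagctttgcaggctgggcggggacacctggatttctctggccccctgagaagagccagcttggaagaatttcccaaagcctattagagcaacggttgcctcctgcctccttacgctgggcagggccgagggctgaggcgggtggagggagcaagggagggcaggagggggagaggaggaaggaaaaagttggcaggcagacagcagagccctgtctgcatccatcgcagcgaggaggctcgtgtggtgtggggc
Kl: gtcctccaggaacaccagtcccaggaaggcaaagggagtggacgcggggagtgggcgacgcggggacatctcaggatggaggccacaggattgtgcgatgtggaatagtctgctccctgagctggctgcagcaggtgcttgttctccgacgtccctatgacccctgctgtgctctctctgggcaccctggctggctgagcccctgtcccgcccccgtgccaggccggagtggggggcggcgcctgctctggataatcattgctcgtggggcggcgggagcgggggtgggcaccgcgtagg

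These windows were searched on both strands for 3 short letter patterns, TAATCC (OTX core), TAAACA (forkhead core) and CTTTGT (SOX core). None of the 4 windows held any of them, against 7.06%, 13.4% and 18.7% of 32851 promoters of the same length. The base composition differed among the 4 windows: G and C made up 67.3% for Kl, 62.7% for Aqp1, and 53.0% and 48.7% at the Kcne2 starts.

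Ttr varied more between embryos than any other row. In hum embryos the Ttr level had a lowest value of 6.89, a median of 13.57 and a highest value of 14.09. In wt embryos the lowest was 6.25, the median 8.74 and the highest 13.81. The full range of 7.84 over the 25 embryos is a 230-fold difference between animals of 1 embryonic day. The values did not spread evenly: 12 arrays lay at or below 11.27, 13 arrays lay at or above 13.32, and the widest step between neighbours was 2.04 log2 units, against 0.96 for the next widest. Both genotypes were present on both sides of this step.

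**Figure D1:**
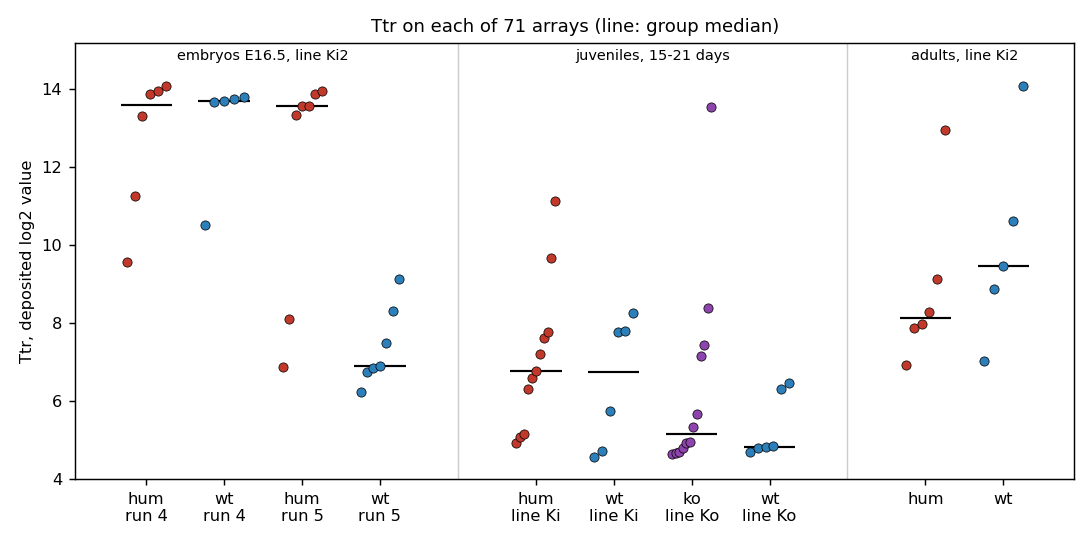
Deposited log2 value of Ttr on each of 71 arrays, with 1 point per array and a line at each group's median, for hum and wt embryos by run, juveniles by line and adults. In run 5, 5 of 7 hum embryos and 0 of 7 wt embryos lie at or above 13.32, and single arrays stand high among the ko juveniles (13.55) and the wt adults (14.08).

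The embryos split into the same 12 and 13 in most other members. The 13 embryos highest for Ttr were also the 13 highest for Folr1, Kcne2, Clic6 and Aqp1, with no overlap. The lowest Folr1 value among them was 6.21, against a highest of 5.58 in the other 12 embryos. For Kcne2 these values were 5.85 against 4.63, for Clic6 7.01 against 6.50 and for Aqp1 5.40 against 4.87. Enpp2 separated in part, with 8 of the 13 above the highest of the others, 8.17. Kl did not separate: it ran from 4.27 to 5.16 over all embryos, and 0 of the 13 exceeded the highest of the other 12. Of all 15768 rows, 14 (0.0888%) split the embryos at this step with all 13 higher, 5 of them members with Ttr included, and 0 rows did so with all 13 lower. As Ttr chose the step, the split is a description and was not tested.

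**Figure D2:**
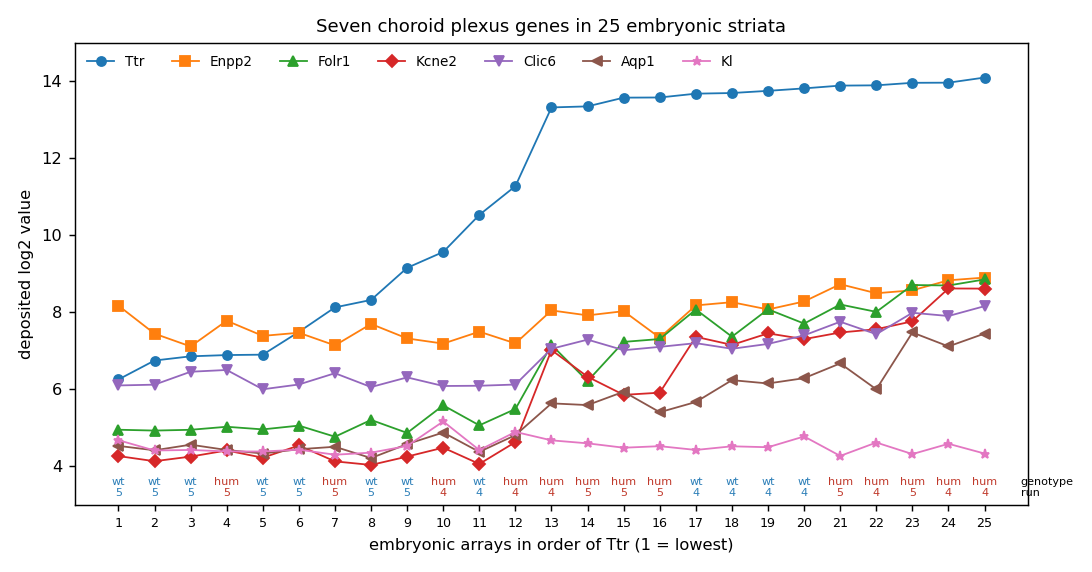
Deposited log2 values of the 7 members in the 25 embryonic arrays, put in order of Ttr, with genotype and array run under each array. Ttr, Folr1, Kcne2, Clic6 and Aqp1 step up together between the 12th and 13th arrays, Enpp2 follows with overlap, and Kl stays between 4.27 and 5.16.

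Littermates lay on both sides of the step. Litter 16 had 6 embryos in run 5, 2 of them in the upper 13, and its Ttr values ran from 6.74 to 13.96. Litter 17 had 2 of 5 in the upper 13, litters 18 and 23 had 1 of 3 each, and litter 19 had 1 of 2. Litters 21 and 22 had 3 of 3 and 2 of 2, and the only embryo of litter 15 also lay there. The brains of a litter were prepared together, per the labels' protocols, and within litter 16 alone Folr1 ran from 4.86 to 8.70 and Kcne2 from 4.03 to 7.76. With runs, genotype and sex in the fit, litter passed for 0 of the 7 members (limma's moderated F test over all rows, adjusted p 0.724 for Kl and 0.883 or more for the other members), with 0.00634% of all rows called.

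Runs differed in 3 members. In run 4 the Ttr level had a lowest value of 9.56, a median of 13.69 and a highest of 14.09 over 11 embryos. In run 5 the lowest was 6.25, the median 8.22 and the highest 13.96 over 14 embryos. The ranges overlapped, with 8 of 11 run 4 embryos and 5 of 14 run 5 embryos in the upper 13. Ttr was lower in run 5 by limma, at a log2 difference of -3.63 (SE 0.88, adjusted p = 0.000822). Kcne2 was lower by the same test at -1.65 (SE 0.53, adjusted p = 0.00854) and Folr1 at -1.49 (SE 0.49, adjusted p = 0.0101). Aqp1 had a difference of -0.78 (adjusted p = 0.0543), and Enpp2, Clic6 and Kl did not pass either. These 3 of 7 members stand beside 62.7% of all rows called between the runs, which is a larger share than that of the members. The labels mention a second batch of embryos without saying which run holds it, so batch of preparation and array run cannot be told apart.

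The comparison of genotypes in embryos asked whether the humanised allele moves these genes in the whole striatum. Mean Ttr was 12.27 ± 2.49 in hum embryos (SD, n = 13), against 9.76 ± 3.15 in wt embryos (SD, n = 12). With sex and run in the fit, the hum minus wt difference was 2.62 for Ttr (SE 0.83), 1.09 for Folr1 (SE 0.46), 1.07 for Kcne2 (SE 0.50), 0.83 for Aqp1 (SE 0.33) and 0.63 for Clic6 (SE 0.23). Enpp2 had 0.22 (SE 0.20) and Kl 0.03 (SE 0.07). None of the 7 members passed limma's test over all rows (adjusted p = 0.995 for each), as 0% of all rows did. At an unadjusted p under 0.05, 5 of the 7 members had passed, and so had 721 rows (4.57%). These 5 are the members that split the embryos at the same step, so they are not 5 independent results. The median difference was 0.83 over the 7 members and -0.00214 over all rows.

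The difference was also fitted within each run. In run 4, 4 of 6 hum and 4 of 5 wt embryos lay in the upper 13, and in run 5 these counts were 5 of 7 hum and 0 of 7 wt. Fitted in run 4 alone, the hum minus wt difference in Ttr was -1.07 (SE 1.04). In run 5 alone it was 4.38 (SE 1.02, limma's adjusted p = 0.422). The difference between the 2 runs, added after the values were seen, was 4.63 for Ttr (SE 1.59), and it passed for 0 of the 7 members (limma, adjusted p = 0.646 for Ttr) and for 0.00634% of all rows. Sex moved with genotype in run 4, where 0 of 6 hum and 3 of 5 wt embryos were male. Male minus female differences passed for 0 of the 7 members in embryos, with 0.0824% of rows called, and Ttr had 1.41 (SE 0.89, limma's adjusted p = 0.841).

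The members also moved together on a finer scale. Among the 13 upper embryos, residuals after group, sex and run were correlated, and among 84 pairs of members over all sets tested, all 21 pairs of these embryos passed (permutation test of Pearson's r with 100000 permutations, Benjamini-Hochberg over the 84 pairs). The upper and lower embryos were set apart by Ttr after its values were seen. Their p-values therefore describe sets chosen from these same data. Of the 21 correlations, 15 were positive, all over 0.5. In every set the permutations shuffled residuals freely and took littermates as independent, so the p-values may be too small. Ttr and Folr1 had r = 0.92 (permutation p = 2e-05, adjusted p = 0.00021) and rho = 0.97 (permutation p = 1e-05, the smallest these permutations can give). Without the 2 embryos farthest from the median of Ttr, r was 0.91. Kcne2 and Clic6 had r = 0.96 and rho = 0.97 (permutation p = 1e-05 for each, adjusted p = 0.00021 and 0.00042), and r = 0.94 without the 2 farthest embryos. The 6 negative correlations were those of Kl with each other member, from -0.73 with Folr1 to -0.60 with Clic6, 3 of which passed by Spearman's rho as well. In these 13 embryos Kl ran low where the other 6 members ran high, over a Kl range of 4.27 to 4.77. Kl was among the dimmer rows in embryos, with a mean level at the 11.1th percentile of all rows. What these negative correlations reflect was not tested.

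The members were also ranked among all rows by their correlation with each other in the upper embryos. Of the 15767 other rows, Kcne2 was the one most correlated with Clic6 in the upper embryos, and Folr1 was the second most correlated with Ttr. Clic6, Aqp1, Kcne2 and Enpp2 ranked 25th, 41st, 58th and 115th for Ttr, and Kl, with its negative r, ranked 15171st. For Enpp2, Ttr ranked 300th. The share of all pairs of rows that would pass was not computed, so passing is not read as particular to the members. Among the 12 lower embryos, only Aqp1 and Kl passed (r = 0.71, permutation p = 0.0095, adjusted p = 0.0177; rho = 0.68, permutation p = 0.0184), with r = 0.48 without the 2 farthest embryos. Ttr and Folr1 had r = -0.10 there (permutation p = 0.758, adjusted p = 0.812; rho = -0.15, permutation p = 0.635). In these embryos Ttr ran from 6.25 to 11.27, but Folr1 only from 4.77 to 5.58, so little change in Folr1 was there to follow. The highest Kl (5.16 and 4.89) and Folr1 (5.58 and 5.49) values of these 12 belonged to hum embryos 6 and 4, littermates of litter 23 in run 4. No correlation between members was pooled over the 2 clusters.

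In juvenile punches the median Ttr value was 5.74 over 35 arrays. Ttr in hum juveniles of line Ki had a lowest value of 4.94, a median of 6.79 and a highest of 11.15, against 4.57, 6.77 and 8.26 in wt of line Ki. In ko juveniles of line Ko the lowest was 4.66, the median 5.16 and the highest 13.55, against 4.69, 4.84 and 6.48 in wt of line Ko. All 4 groups overlapped, and 1 array made the upper end of the ko group. The hum minus wt difference in line Ki was 0.66 for Ttr (SE 0.92, limma's adjusted p = 1.00), and the ko minus wt difference in line Ko was 0.90 (SE 0.91, limma's adjusted p = 1.00). None of the 7 members passed in either comparison, beside 0.00634% of all rows in each. The wt animals of line Ki and line Ko differed in 0 of the 7 members, with 0.00634% of rows called, and Ttr had 1.15 (SE 1.05, limma's adjusted p = 0.829).

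One punch was high in most members. The ko juvenile 12, a male of 21 days from litter 10 in run 3, had the highest value of 35 juveniles in 6 of the 7 members. Its Ttr of 13.55 lay 7.84 log2 units, or 229-fold, above the median of the other 34 and 2.40 above the next array. Its Kl of 6.28 lay 1.67 above that median, Kcne2 (5.73) 1.61, Folr1 (5.88) 1.11, Aqp1 (5.25) 0.83 and Enpp2 (12.64) 0.81. Clic6, at 8.25, was the exception and lay below the juvenile maximum of 8.51. Only 4 rows of the whole table (0.0254%) were more than 2-fold above every other juvenile on this array, and 3 of them are members: Ttr, Kcne2 and Kl. The ko juvenile 9 had as many such rows, 4, of which 0 are members. The same litter also gave ko juveniles with Ttr values of 4.68, 7.15 and 7.46 and wt juveniles with 6.48 and 4.84.

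The next juveniles in Ttr were hum juveniles 4 and 3 of line Ki. Both were 15-day males of litter 6, with Ttr values of 11.15 and 9.67. Their Kcne2 values were 4.23 and 4.00 and their Aqp1 values 4.54 and 4.39, within the range of the other juveniles. Their Folr1 values, 4.93 and 5.01, were the highest in line Ki, and their Kl values were 4.62 and 4.77. Enpp2 ran from 11.22 to 12.64 over all juveniles, with a mean level at the 98.7th percentile of all rows. Folr1 (median 4.77), Kcne2 (4.12), Aqp1 (4.43) and Kl (4.61) ranked among the dimmer rows of the table, with mean levels at the 19.0th, 7.64th, 12.0th and 16.8th percentiles of all rows.

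**Figure D3:**
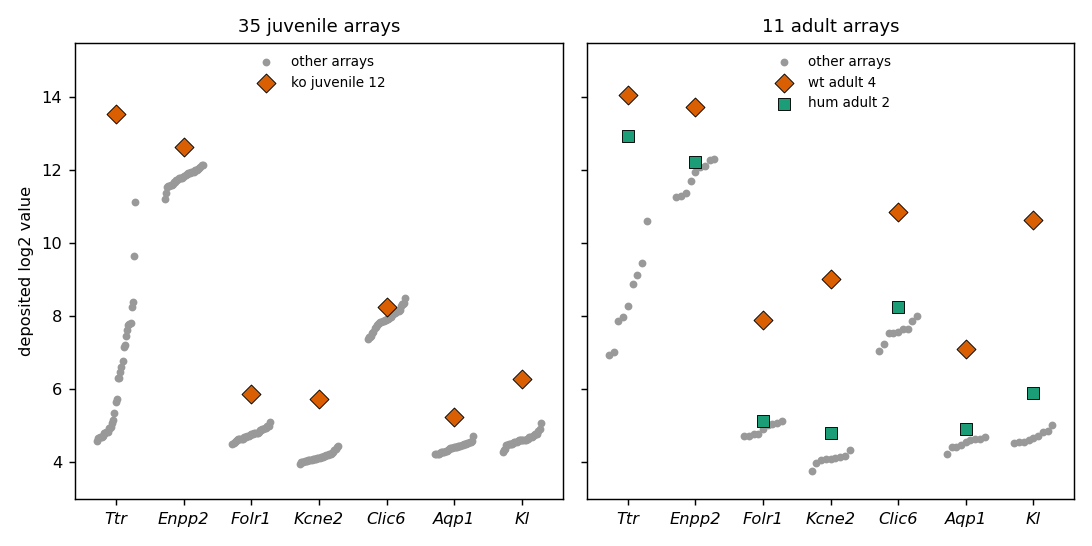
Deposited log2 values of the 7 members in 35 juvenile arrays (left) and 11 adult arrays (right), with 1 point per array. Diamonds mark ko juvenile 12 and wt adult 4 and squares hum adult 2; wt adult 4 is highest in all 7 members and ko juvenile 12 in all but Clic6.

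Age, run, sex and litter called no member in juveniles. Clic6 at 15, 18 and 21 days averaged 7.69 ± 0.26, 7.86 ± 0.26 and 8.10 ± 0.17 in line Ki (SD, n = 6, 6 and 5) and 7.89 ± 0.31, 8.04 ± 0.29 and 8.05 ± 0.31 in line Ko (SD, n = 6, 5 and 7). Its 21-day minus 15-day difference of 0.26 (SE 0.11) did not pass (limma's adjusted p = 0.0883), and 0 of the 7 members did, beside 19.7% of all rows. In a fit of line Ki alone, 2 members passed for age, Clic6 at 0.45 (SE 0.12, limma's adjusted p = 0.0223) and Folr1 at -0.20 (SE 0.06, limma's adjusted p = 0.0304). The share of all rows called in that fit is not given here, so these 2 are not read as particular to the members. The change with age differed between the lines in 0 of the 7 members, with 0.4% of rows called. Array run passed for 0 of the 7, with 5.19% of rows called, litter for 0 of the 7, with 1.04%, and sex for 0 of the 7, with 0.0571%.

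Among adults, 1 animal stood apart in every member. Ttr in the 6 hum adults had a lowest value of 6.94, a median of 8.13 and a highest of 12.95. The 5 wt adults had Ttr values of 7.02, 8.88, 10.62, 14.08 and 9.46. The wt adult 4 had the highest value of all 11 adults in each of the 7 members. Over the median of the other 10 adults it was higher by 5.95 for Kl (10.65), 5.49 for Ttr (14.08), 4.90 for Kcne2 (9.01), 3.26 for Clic6 (10.87), 2.93 for Folr1 (7.90), 2.53 for Aqp1 (7.11) and 1.71 for Enpp2 (13.74). All 7 members were among the 60 rows (0.381%) that were more than 2-fold above every other adult on this array. The largest such count on any other adult array was 20, and the median was 2.

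Kl was high in this adult and in none of the embryos. The Kl level of 10.65 in wt adult 4 stands against 4.27 to 5.16 over all embryos, including the 13 with Ttr at or above 13.32. Littermates of wt adult 4 in litter 25 were not high: a wt female had a Ttr of 9.46 and a Kl of 4.71, and both hum females had Ttr values of 8.28 and 7.88 and Kl values of 5.01 and 4.86. The hum adult 2, from litter 20, came next with a Ttr of 12.95 and a Kl of 5.91, against 8.88 and 4.68 in its wt littermate.

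No member passed for genotype in adults. The hum minus wt difference was -1.15 for Ttr (SE 1.17, limma's adjusted p = 0.925), and for the other members it lay between -0.87 for Kl and -0.19 for Enpp2. None of the 7 members passed, as 0% of all rows did, although 890 rows had an unadjusted p under 0.05. With each adult left out in turn, the Ttr difference ran from -1.97 to -0.14, the value nearest 0 coming without wt adult 4. Without that array the differences of 5 other members turned positive, at 0.21 for Enpp2, 0.12 for Folr1, 0.23 for Kcne2, 0.44 for Clic6 and 0.33 for Kl, and that of Aqp1 was -0.04. None of these passed either (limma's adjusted p = 0.864 or more). The adult minus embryo difference in the humanised effect was -3.67 for Ttr (SE 1.87) and -1.36 for Aqp1 (SE 0.63), and it passed for 0 of the 7 members (limma's adjusted p = 0.987 and 0.947) and for 0% of rows.

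**Figure D4:**
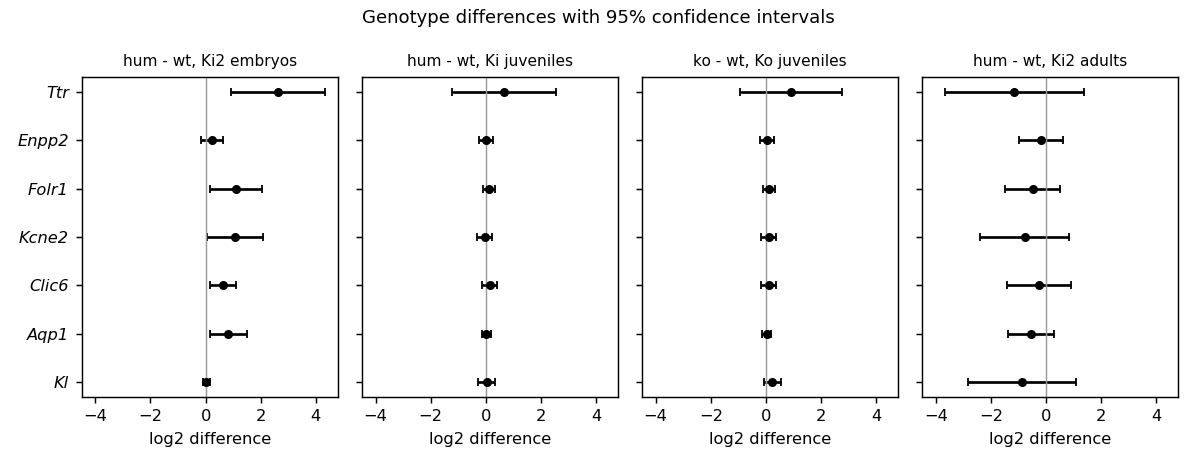
Genotype differences of the 7 members on the log2 scale (points) with 95% confidence intervals from limma (bars), for hum minus wt in embryos, in line Ki juveniles and in adults and ko minus wt in line Ko juveniles. The Ttr intervals are the widest in each panel, and no member passed after adjustment over 15768 rows.

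Correlations among the members in juveniles and adults rested on few arrays. In adults 20 of the 21 pairs passed and the median r was 0.86, but without the 2 adults farthest from the median the median r was 0.59. Among 15767 other rows in adults, the members ranked from 223rd (Aqp1) to 1034th (Folr1) by correlation with Ttr, while Kl ranked 4th for Kcne2. In juveniles 14 of 21 pairs passed with a median r of 0.43, and this was 0.23 without the 2 farthest juveniles. No juvenile pair with Clic6 passed. Its r ran from -0.04 with Ttr to 0.18 with Enpp2, beside a median r of 0.115 for Clic6 with all rows. By ranks 10 adult pairs and 2 juvenile pairs passed. With residuals taken anew, leaving out wt adult 4 alone left 10 adult pairs, and leaving out ko juvenile 12 left 1 juvenile pair. In adults Kcne2 and Kl had r = 0.95 without the 2 farthest (with all 11, r = 0.99, permutation p = 6e-05, adjusted p = 0.00042, and rho = 0.87, permutation p = 0.00102). For Ttr and Kl, r was 0.76 with all 11 (permutation p = 0.00684, adjusted p = 0.0134; rho = 0.48, permutation p = 0.138) and 0.15 without the 2 farthest. Values without the 2 farthest arrays, and those by ranks, used residuals from all arrays of the stage. The wt adult 4 thus still set the wt mean in them, and they do not show adult correlations without it.

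Ttr had the widest spread between animals of the 7 members at every stage, and the order of the others differed between stages. With groups, runs, sexes and ages taken out as far as each stage has them, the residual SD of Ttr was 2.33 in embryos, 2.00 in juveniles and 2.36 in adults, ranking 1st, 2nd and 1st of 15768 rows. In embryos Kcne2 ranked 2nd (1.40), Folr1 3rd (1.29), Aqp1 7th (0.92), Clic6 28th (0.62) and Enpp2 54th (0.54), whereas Kl ranked 5980th (0.18), beside a median of 0.16 over all rows. In adults Kl ranked 3rd (1.83) and Kcne2 9th (1.51). Without wt adult 4 Ttr ranked 2nd in adults (1.92), but Kl ranked 2058th and Folr1 10710th. Without ko juvenile 12 Ttr kept the 2nd rank in juveniles (1.54) and Kcne2 ranked 10633rd.

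**Figure D5:**
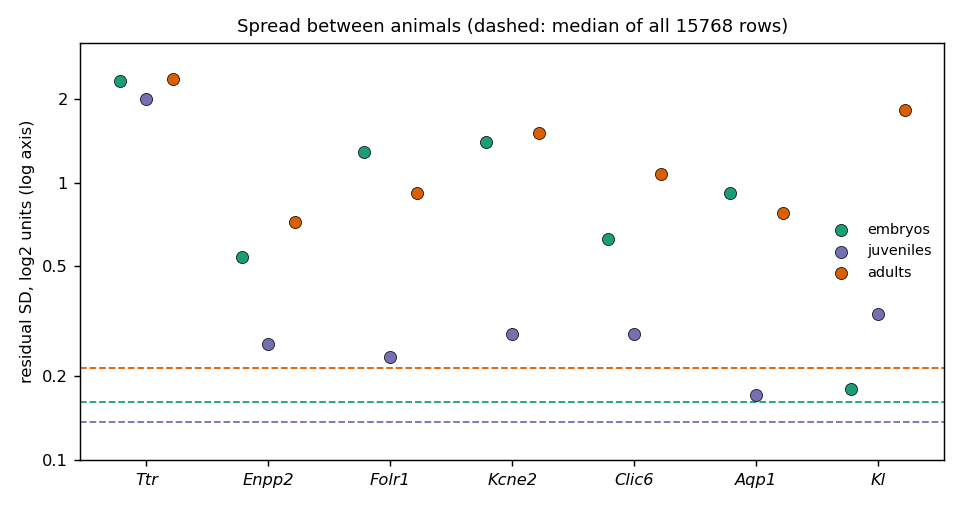
Residual standard deviation of each member between animals, in log2 units on a log axis, in embryos, juveniles and adults, with dashed lines at the median of all 15768 rows for each stage. Ttr has the highest point of the 7 at every stage, and Kl lies near the dashed line in embryos (0.18) and at 1.83 in adults.

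Between adults and embryos of line Ki2, 4 of the 7 members differed, beside 68.3% of all rows. Enpp2 was higher in adults at every array, with embryos from 7.11 to 8.90 and adults from 11.28 to 13.74, and an adult minus embryo difference of 4.00 (SE 0.23, limma's adjusted p = 6.23e-18). Clic6 was higher in adults by 1.04 (SE 0.31, limma's adjusted p = 0.00367), with ranges that overlapped. Folr1 was lower in adults at -1.43 (SE 0.52, limma's adjusted p = 0.0148) and Kcne2 at -1.51 (SE 0.61, limma's adjusted p = 0.0287). These differences pool the embryos on both sides of the step in Ttr. Median Folr1 was 5.02 in adults, against 4.99 in the lower 12 embryos and 8.01 in the upper 13. For Kcne2 these medians were 4.12, 4.25 and 7.36, so adults lay near the lower embryos in both genes. Ttr, Aqp1 and Kl did not pass, at -1.79, -0.80 and 0.74. This is a smaller share than that of the whole table, and stage and array run cannot be told apart. With litter as a random replicate block, Kcne2 did not pass (-1.61, limma's adjusted p = 0.0640). Without wt adult 4, 6 members passed, all but Kl, and the share of all rows called in that fit is not given here.

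Rows outside the set were ranked by likeness in juveniles and adults. At each of these stages the mean of the 7 members' residuals, each scaled to unit SD, was set against every row by Pearson's r. Exactly 3 rows outside the set were among the 10 nearest such rows at both stages. Among them were ENSMUSG00000036169_at, with r = 0.87 over 35 juveniles and 0.99 over 11 adults, and ENSMUSG00000037086_at, with r = 0.67 and 0.99. No table used here gives these rows a name. Of the 100 nearest rows at each stage, 11% were shared. These lists are descriptions, were not tested and were made with ko juvenile 12 and wt adult 4 included. The embryos fall into clusters, so their ranking over all 25 arrays is not given. All 4 rows high in ko juvenile 12 were among the 60 high in wt adult 4.

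Genotype was also fitted with the Ttr level taken into account. With Ttr as a covariate, a setting added after the values were seen, 0 rows passed for genotype in embryos and 0 in adults, and 0 had passed without it. The smallest limma adjusted p of any row was 0.876 with it and 0.337 without it in embryos, and 0.456 with it and 0.710 without it in adults. Rows at an unadjusted p under 0.05 numbered 538 with it and 721 without it in embryos, and 1065 with it and 890 without it in adults. Among juveniles, 1 row of line Ki and 1 of line Ko passed both with and without it.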

How the data were processed

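The deposited table holds log2 expression values made by the authors for 15768 Ensembl identifiers, between 3.26 and 14.5. How they corrected background, normalized and summarised probes is not stated in the sources used. Juvenile columns carry fewer decimals than line Ki2 columns and may have been computed apart, so levels were compared within each part only. Groups, sex, age, run and litter came from the labels. Member symbols came with the list of identifiers, since the reference holds 0 Ensembl identifiers; the members and all lists were chosen with earlier results of these data known.

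Comparisons were fitted over all rows with limma 3.58.1 in R 4.3.3 (lmFit, eBayes with trend) and adjusted by Benjamini-Hochberg, at a threshold of 0.05. Embryos were fitted with sex and run, juveniles in 1 fit with sex, age and run, and adults with genotype alone. No filter on dim rows was set, as removing the dimmest 40% would leave 3 of the 7 members. Methods were tested on simulated data. Littermates share parents, and the within-litter correlation (limma) came to 0.19 in juveniles, to -0.0027 in embryos and to -0.067 in adults. The number of arrays limits the precision. Named rows outside the set came from the 10 most correlated with the members in juveniles and in adults, with at most 2 identifiers printed; the rule also covered embryos, whose ranking is left out because they fall into clusters. Alternatives were filters, normalizations, array weights, no trend, litter blocks, single runs or lines and single arrays left out.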

Additional observations from a re-analysis of the deposited data

Results flagged for a closer look

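In 28 sets of 1 member in 1 group of 4 to 10 arrays, Dixon's ratio (the gap of an extreme array to its nearest neighbour, over the range of its group) passed its 95% critical value in 7, where chance gives about 1 in 20. Of these, 5 were wt adult 4 among the 5 wt adults, with ratios of 0.906 for Folr1, 0.927 for Kcne2, 0.843 for Clic6, 0.911 for Aqp1 and 0.968 for Kl. The other 2 were hum adult 2 among the 6 hum adults, with ratios of 0.634 for Ttr and 0.669 for Kl. All 7 lie at the high end of their group, and the 7 are not independent, as they come from 2 animals. Groups of more than 10 arrays, which include all embryos and the hum and ko juveniles, were not tested in this way. The part of dissection in these values was not tested.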

How the results depend on the processing

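Counts of members or pairs past the threshold were recomputed under 697 alternatives over 19 results, and 669 stayed within 1.5 times the count reported. Counts of 0 that stayed 0 are included, and most fitted comparisons had a count of 0. The total therefore says little about the results that passed. Shares of all rows called under each alternative are not given here. The comparison of embryonic runs (3 members) gave 1 of 3 tested after a filter on the dimmest 40% of rows, 5 with median centring, 6 with array weights and 5 at an adjusted p under 0.10. Adults against embryos (4 members) gave 2 of 3 tested after the filter. Age in juveniles (0) gave 1 at an adjusted p under 0.10 and 2 in line Ki alone. Litters in juveniles (0) gave 1 with array weights, and litters in embryos (0) gave 2 with no run term, a setting in which litters carry the run difference. Correlated pairs were 2 in place of 14 in juveniles and 10 in place of 20 in adults by Spearman's rho. In embryos below the step in Ttr (1 pair) they were 3 after group means alone, 2 with litter as a fixed replicate block and 0 after quantile normalization. With each array left out in turn, the counts ran from 3 to 5 for embryonic runs, 3 to 6 for adults against embryos, 0 to 1 for age and for litters in juveniles, 1 to 3 for pairs in the lower embryos, 18 to 21 in the upper embryos, 1 to 15 in juveniles and 10 to 21 in adults. The low ends in juveniles and adults came without ko juvenile 12 and wt adult 4. The Ttr difference changed sign in 3 settings: -1.07 for hum against wt embryos in run 4 alone, -4.36 for hum against wt line Ki juveniles in run 3 alone and -0.65 for ko against wt in run 1 alone. In run 3 both wt animals of line Ki were 18 days old and all 4 hum animals were 15 or 21 days old. Genotype and age therefore cannot be told apart within line Ki there. That fit took the step to 18 days from line Ko, which includes ko juvenile 12. Without adjustment, mean Ttr of line Ki in run 3 was 7.58 in hum and 6.77 in wt. The cause of the 3 changes of sign was not tested. Litter as a replicate block left every genotype count at 0.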
